A study of Mus musculus with 8 samples.

Results

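The 56 genes described here are the numbered cadherins and the protocadherins with a probe set of their own on the array. They were all genes of the value table that had a probe set whose single platform symbol was Cdh followed by a number or started with Pcdh, and they carried 101 probe sets among 18193 genes in all. They comprised 5 type I classical cadherins, 11 type II classical cadherins, 5 other numbered cadherins, 12 non-clustered protocadherins and 23 clustered protocadherins. The median signal of the whole table, 291, served as the cutoff: a gene with a probe set that exceeded it on 2 or more arrays was taken as detected and was tested. Of the 56 genes 14 (25%) were detected, against 63.6% of the 18193 genes.

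The cells were mouse embryonic fibroblasts immortalized with large T antigen and grown at 21% oxygen, and all 4 groups shared both. Beside the wild type stood 3 deleted groups: FIH null, VHL null, and the VHL/FIH null cells that lack both, called double null below. Each group had 2 arrays. Each null line was made with an adenovirus carrying Cre from its own line of floxed cells (FIHdf, VHLdf or VHLdf/FIHdf), so genotype and line of origin cannot be told apart, and the labels do not say whether the wild type cells received the virus. VHL is the substrate receptor of the ubiquitin ligase that removes HIF alpha subunits, and FIH is the asparagine hydroxylase that blocks their contact with the p300 and CBP coactivators. The labels call the arrays of a group biological replicates without naming separate embryos or cultures, so p-values measure the spread between these arrays, which may be technical. The values are MAS5 signals, a linear brightness summarised over the probes of a probe set, which cannot be compared between probe sets.

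Cadherins are calcium-dependent adhesion proteins whose ectodomains bind cadherins on neighbouring cells. Classical cadherins tie to actin through p120, beta and alpha catenins, type I members such as N-cadherin (Cdh2) holding strong junctions and type II members such as cadherin 11 marking mesenchymal and neural groups. Protocadherins bind more weakly and signal through other cytoplasmic partners, and the clustered ones are switched on promoter by promoter from arrays of genes. A fibroblast is known for N-cadherin and cadherin 11 and for lacking E-cadherin (Cdh1).

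RefSeq promoter windows of build GRCm38.p6 were at hand for 6 of the 14 detected genes. Those of Pcdh17 and Cdh10 are shown because both genes were low in the 2 groups without VHL, and that of Pcdh9 because it was low in the double null cells alone. Each holds the 250 bases before the start site, 5′ to 3′ on the strand of the gene. Both forms of the core that HIF binds, ACGTG and GCGTG, and CACCTG, the E-box of Snail and Zeb factors, were searched on both strands. Capitals mark GCGTG or its complement CACGC.
Pcdh17, chr14:84443313-84443562, plus strand: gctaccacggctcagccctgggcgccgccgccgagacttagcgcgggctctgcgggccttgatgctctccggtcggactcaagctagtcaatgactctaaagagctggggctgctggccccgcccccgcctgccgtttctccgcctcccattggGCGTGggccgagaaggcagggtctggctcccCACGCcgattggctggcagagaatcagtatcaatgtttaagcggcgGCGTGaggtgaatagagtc
Cdh10, chr15:18820079-18820328, plus strand: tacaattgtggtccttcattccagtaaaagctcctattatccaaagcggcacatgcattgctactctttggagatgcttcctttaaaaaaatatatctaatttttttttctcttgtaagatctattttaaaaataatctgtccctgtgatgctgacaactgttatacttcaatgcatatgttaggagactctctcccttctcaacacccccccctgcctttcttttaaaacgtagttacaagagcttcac
Pcdh9, chr14:93890670-93890919, minus strand: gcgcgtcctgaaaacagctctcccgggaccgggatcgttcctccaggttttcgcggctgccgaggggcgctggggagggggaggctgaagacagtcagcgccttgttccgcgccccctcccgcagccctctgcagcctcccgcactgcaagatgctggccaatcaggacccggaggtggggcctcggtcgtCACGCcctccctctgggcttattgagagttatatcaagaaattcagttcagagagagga
GCGTG occurred at 96, 65 and 19 bases before the start of Pcdh17 and at 59 bases before that of Pcdh9, and neither ACGTG nor CACCTG was found in these 3 windows. No motif was found in the Cdh10 window. Of the windows not shown, that of Pcdh18 held GCGTG at 214, 90 and 10 bases before the start. That of Cdh15 held ACGTG at 32 bases on the minus strand and at 31 on the plus strand, both within the same CACGTG. The Pcdh19 window held no motif. The windows of Pcdh17, Pcdh9 and Cdh10 were 64.8%, 63.6% and 36.8% GC, against a median of 52.4% over all windows. Among 32851 RefSeq windows of this length, 28.2% held GCGTG, 16.6% held ACGTG and 17.2% held CACCTG. A match describes letters in the window and is not a binding site.

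The 2 targeted genes were measured first. The Vhl signal was 3269 and 3320 in wild type and 3534 and 3426 in FIH null cells, against 708 and 755 in VHL null cells and 1061 and 897 in double null cells. The signal of Hif1an, which encodes FIH, was 2722 and 3013 in the wild type, 1676 and 1707 without FIH alone, 1913 and 2153 without VHL alone and 1404 and 1169 without both. Whether these probe sets lie in the deleted exons was not checked. The scaled arrays had medians between 282 and 307, and the 3′ to 5′ signal ratio ran from 1.18 to 1.29 for actin and from 0.787 to 0.822 for Gapdh. Spiked hybridization controls were brighter than in wild type by 0.26 in FIH null cells, 0.36 in VHL null cells and 0.46 in double null cells on the log2 scale. Scaling to them moved the median change of all tested genes from -0.00, -0.10 and -0.05 to -0.27, -0.46 and -0.51 for the 3 groups, so every change below is relative to the arrays' common scale.

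Detection fell unevenly across the classes. Type I cadherins were detected in 3 of 5 cases (Cdh2, Cdh3, Cdh15), type II in 2 of 11 (Cdh10, Cdh11) and other numbered cadherins in 2 of 5 (Cdh13, Cdh17). Non-clustered protocadherins were detected in 4 of 12 cases (Pcdh9, Pcdh17, Pcdh18, Pcdh19) and clustered ones in 3 of 23 (Pcdhb17, Pcdhb22, Pcdhgc4). Of the other 42 genes, 36 never passed 291. Among these was E-cadherin, the adhesion protein of epithelia, whose signal did not exceed 239 on any array. The remaining 6 passed on no more than 1 array per probe set: Cdh20 in FIH null cells at 409, Pcdhb19 and Cdh5 (VE-cadherin of endothelium) in double null cells at 320.2 and 311, and Pcdhb21, Cdh23 and Cdh6 at 300.3, 295 and at most 299. A further 6 probe sets that the platform assigns to several Pcdha genes reached 196 at most.

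**Figure D1:**
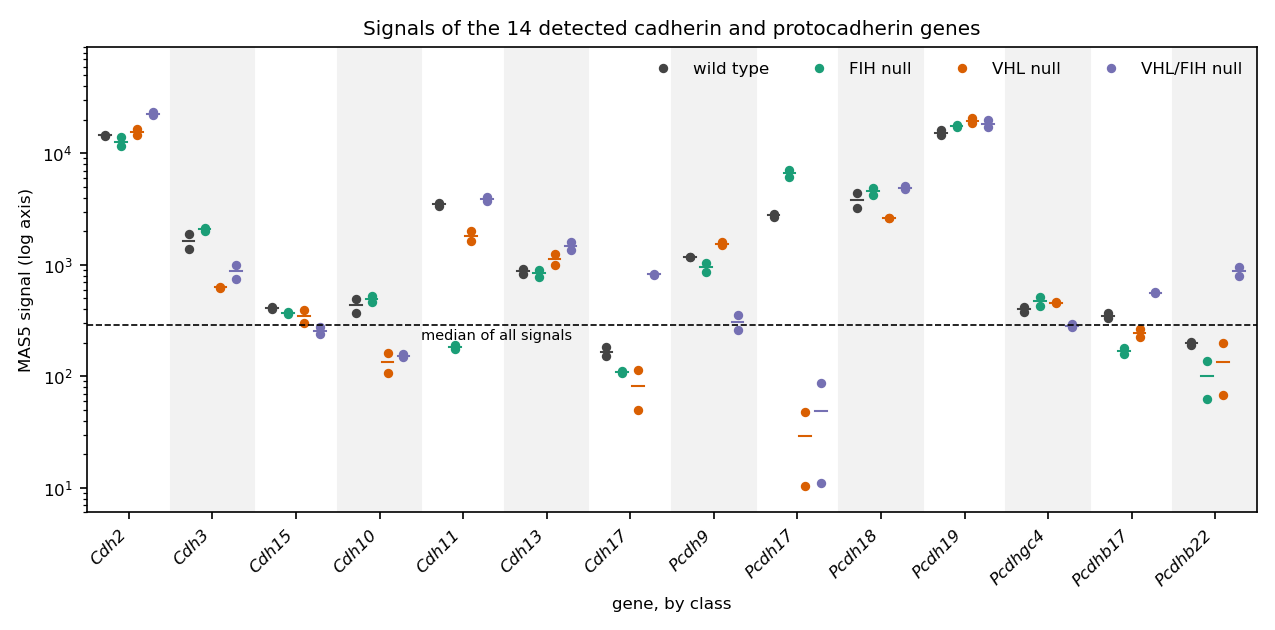
MAS5 signal (log axis) of the 14 detected genes, ordered by class; points are arrays, bars are means of the 2 arrays of a group, and the dashed line is the median of all signals, 291. Pcdh17 and Cdh10 lie under the line in both groups without VHL, Cdh11 in FIH null cells, and Cdh17 and Pcdhb22 lie above it in double null cells alone.

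Across the 4 groups, 12 of the 14 genes differed by limma's moderated F test, where 64.9% of the 11564 tested genes did. Cdh15 (adjusted p = 0.203) and Pcdhgc4 (adjusted p = 0.0786) did not pass. Cdh17 and Pcdhb22 entered the test only through their double null arrays and so had to differ. Changes below are differences of log2(signal + 16) ± SE over 2 arrays against 2, tested with limma over all 11564 genes with Benjamini-Hochberg adjustment and called at 0.05. Adding 16 understates the changes of dim genes. Where both arrays of a group were at or under 291, the fold is a bound, the bright group's mean over 291, and is written as at least.

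N-cadherin, the chief classical cadherin of fibroblasts, was bright on all 8 arrays and brightest in double null cells. The Cdh2 signal was 14371 and 14701 in wild type arrays, 11533 and 13905 in FIH null arrays, 14567 and 16395 in VHL null arrays and 22073 and 23418 in double null arrays. The double null arrays stood above all others, and the wild type and VHL null arrays overlapped. Cdh2 was 1.56-fold higher in double null than in wild type cells (0.64 ± 0.087, adjusted p = 0.000156; 0.18 and adjusted p = 0.0982 under scaling to hybridization controls). It was 1.47-fold higher than in VHL null cells (0.56 ± 0.087, adjusted p = 0.000548) and 1.79-fold higher than in FIH null cells (0.84 ± 0.087, adjusted p = 1.81e-05). Its changes in FIH null (-0.20) and VHL null cells (0.09) did not pass, with adjusted p = 0.222 and 0.439, and the latter turned to -0.27 under scaling to hybridization controls. The second Cdh2 probe set gave 0.50 for double null and -0.30 for VHL null cells against wild type. On chromosome 18, where Cdh2 lies, the other 280 tested genes had a median change of -0.18 in double null cells against wild type, against -0.05 over all tested genes.

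P-cadherin, a type I cadherin of placenta and basal epithelia, fell in both groups without VHL. The Cdh3 signal was 1882 and 1375 in wild type cells, then 2121 and 2029 with FIH deleted, 623 and 638 with VHL deleted and 1003 and 746 with both deleted. The 4 arrays without VHL were lower than the 4 arrays with it. Cdh3 was 2.58-fold lower in VHL null (-1.33 ± 0.18, adjusted p = 0.000164) and 1.86-fold lower in double null cells than in wild type (-0.88 ± 0.18, adjusted p = 0.00217). Double null cells were also 2.37-fold below FIH null cells (-1.25, adjusted p = 0.000182). The double null and VHL null groups did not pass against each other (0.45, adjusted p = 0.0687), where its second, dimmer probe set gave -0.54. M-cadherin (Cdh15), a cadherin of muscle precursors, lay close to the cutoff, from 237 in a double null to 422 in a wild type array, and passed in no comparison. Under scaling to hybridization controls it passed as lower in double null than in wild type cells (-1.12, adjusted p = 0.0039). With no variance trend it passed in double null cells against wild type (adjusted p = 0.0142) and FIH null cells (adjusted p = 0.0295).

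Cadherin 11 and cadherin 10 were the detected type II members, and cadherin 11 had the largest fall of any member in FIH null cells. The Cdh11 signal was 3402 and 3622 in the wild type, 177 and 191 without FIH alone, 1624 and 2018 without VHL alone and 4044 and 3749 without both. Both FIH null arrays were under the cutoff, VHL null arrays lay between, and double null arrays stood slightly above wild type. Cdh11, the cadherin of mesenchyme and osteoblasts, was at least 12.1-fold lower in FIH null than in wild type cells (-4.14 ± 0.13, adjusted p = 1.18e-08). It was 1.93-fold lower in VHL null cells (-0.95 ± 0.13, adjusted p = 0.000185). In double null cells it did not pass against wild type (0.15 ± 0.13, adjusted p = 0.384; -0.31 and called under scaling to hybridization controls). It was 2.14-fold above VHL null (1.10 ± 0.13, adjusted p = 7.41e-05) and at least 13.4-fold above FIH null cells (4.29 ± 0.13, adjusted p = 1.35e-09). The second Cdh11 probe set, dim throughout, gave -1.85 in FIH null and -1.19 in VHL null cells against wild type.

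Markers of cartilage and bone did not move together. Their summed signal over the 5 measured genes was 4291 to 4387 in wild type arrays, 1837 to 1841 in FIH null arrays, 4147 to 4753 in VHL null arrays and 1449 to 1627 in double null arrays. The sum was thus low in FIH null cells, where Cdh11 was low, and also in double null cells, where Cdh11 was high. Means in wild type, FIH null, VHL null and double null cells were 2161, 32.2, 487 and 74.5 for Col2a1. In the same order Acan had 550, 219, 1728 and 299, and Sox9 had 1030, 1011, 1823 and 723. Sp7 and Alpl had means of 176 to 316 throughout. All 5 markers passed the cutoff on at least 2 arrays, and their part in the Cdh11 values was not tested. In bulk RNA, fewer cells of a type and less RNA per cell cannot be told apart.

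Cdh10, a type II cadherin of brain, was low in both groups without VHL. Its signal was 372 and 491 in wild type and 521 and 464 in FIH null cells, against 162 and 107 in VHL null cells and 157 and 148 in double null cells. All 4 arrays without VHL were under the cutoff, and all 4 with it above. It was at least 1.48-fold lower than in wild type cells in VHL null (-1.58 ± 0.35, adjusted p = 0.00383) and double null cells (-1.40 ± 0.35, adjusted p = 0.00796). Without the second wild type array the latter no longer passed (adjusted p = 0.0711). Double null cells were at least 1.69-fold below FIH null cells (-1.59, adjusted p = 0.00332). These values rest on 1 of 4 Cdh10 probe sets. The others never passed the cutoff. They did not share the fall in VHL null cells and had mixed signs in double null cells. Against wild type they gave 0.09, 0.07 and 1.33 in VHL null and 0.27, -1.11 and 0.52 in double null cells.

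T-cadherin (Cdh13), which is held in the membrane by a lipid anchor and binds adiponectin, was highest in double null cells. Its signal was 918 and 831 in wild type cells, then 896 and 777 with FIH deleted, 1003 and 1242 with VHL deleted and 1366 and 1588 with both deleted. It was 1.69-fold higher in double null than in wild type (0.74 ± 0.16, adjusted p = 0.00309; 0.28 and adjusted p = 0.134 under scaling to hybridization controls) and 1.77-fold higher than in FIH null cells (0.81 ± 0.16, adjusted p = 0.00161). Its change in VHL null cells (0.35, adjusted p = 0.0959) did not pass, and 1 of its 3 detected probe sets there gave -0.19. It passed under quantile normalization (0.50, adjusted p = 0.024), median centring (0.43, adjusted p = 0.0449) and centring per chromosome (0.71, adjusted p = 0.00321). The 3 probe sets gave changes of 0.74, 0.38 and 1.31 between wild type and double null cells.

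Cdh17, the LI-cadherin of intestine and liver, was above the cutoff on the 2 double null arrays alone. It was tested only through them, so the filter favoured a higher value in double null cells and the comparisons are a description. Its signal was 182 and 151 in the wild type, 112 and 108 without FIH alone, 114 and 50.3 without VHL alone and 807 and 835 without both. That is at least 2.82-fold higher in double null cells than in wild type (2.20 ± 0.45, adjusted p = 0.00243), VHL null (3.17, adjusted p = 0.000276) and FIH null cells (2.74, adjusted p = 0.000498). The epithelial marker sum was also highest there: over the 10 markers it was 10961 to 11048 in wild type arrays, 11873 to 12373 in FIH null arrays, 16599 to 17208 in VHL null arrays and 40857 to 48058 in double null arrays. Most of that sum was keratin 19 (mean 7759 in wild type and 42622 in double null cells), and only 4 of the 10 passed the cutoff on at least 2 arrays. Cldn3, Cldn4, Cldn7, Esrp1 and Ovol1 never passed it, and Krt18 had a mean of 1375 in wild type and 340.4 in double null cells. The part of these markers in the Cdh17 values was not tested.

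Among the non-clustered protocadherins, Pcdh17 was bright in cells with VHL and far under the cutoff in those without it. This adhesion protein, known from axon sorting and synapses, had a signal of 2707 and 2849 in wild type and 7064 and 6193 in FIH null cells. In VHL null cells it was 10.4 and 48.2, and in double null cells 87.3 and 11. FIH null arrays were highest, and all 4 arrays without VHL lay far under the cutoff. Pcdh17 was at least 9.54-fold lower than in wild type cells in both VHL null (-6.08 ± 0.54, adjusted p = 1.07e-05) and double null cells (-5.72 ± 0.54, adjusted p = 1.10e-05). It was at least 22.8-fold lower in double null than in FIH null cells (-6.97, adjusted p = 2.01e-06). The 2.39-fold higher mean in FIH null cells did not pass (1.25 ± 0.54, adjusted p = 0.218), with a spread shared with the groups in which the gene was near 0. It passed when the fit held only the compared groups (adjusted p = 0.000116), when 64 was added in place of 16 (0.0317) and for the mean of its probe sets (0.0298). The second probe set gave 1.27 in FIH null, -4.05 in VHL null cells and -5.89 in double null cells, and -1.85 between the last 2 groups, where the first gave 0.36. The 6 nearest tested genes on chromosome 14 that are no members, 3 on each side, had median changes of 0.17 in VHL null cells and 0.07 in double null cells.

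Also on chromosome 14, Pcdh9, a protocadherin of developing brain, was low in double null cells alone. The Pcdh9 signal was 1179.7 and 1173 in wild type cells, then 1035 and 857 with FIH deleted, 1599 and 1506 with VHL deleted and 353 and 262 with both deleted. The double null arrays were below all others, and the VHL null arrays above all others. Pcdh9 was 3.83-fold lower in double null cells than in wild type (-1.90 ± 0.18, adjusted p = 9.63e-06). It was 5.06-fold lower than in VHL null (-2.29 ± 0.18, adjusted p = 3.31e-06) and 3.08-fold lower than in FIH null cells (-1.58 ± 0.18, adjusted p = 3.29e-05). The changes in FIH null (-0.32) and VHL null cells (0.39) did not pass, with adjusted p = 0.341 and 0.0928. The VHL null value passed under 6 alternatives, among them quantile normalization (0.56, adjusted p = 0.0224) and the mean of probe sets (0.58, adjusted p = 0.0367). The second detected probe set gave -1.59 in double null cells against wild type.

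**Figure D2:**
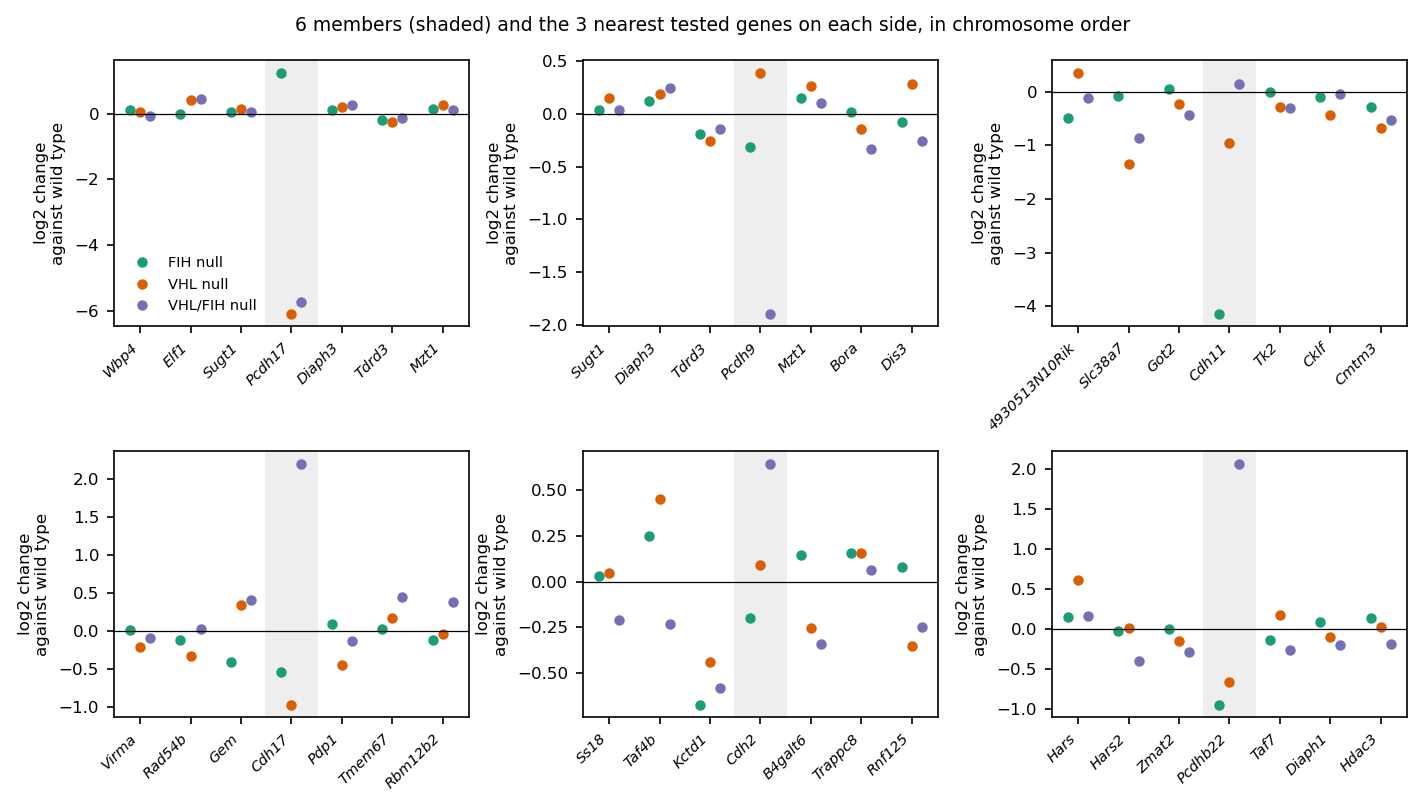
Log2 change against wild type of 6 detected genes (shaded) and of the 3 nearest tested genes on each side that are no members, in chromosome order, with gene symbols on the horizontal axis and 1 colour per null group. Pcdh17 stands at -6.08 and -5.72 without VHL while its neighbours have medians of 0.17 and 0.07, and Cdh2, Cdh17 and Pcdhb22 stand above theirs in double null cells.

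Pcdh18, which is known from mesoderm and binds the adaptor Dab1, was lowest in VHL null cells. Its signal was 3241 and 4370.5 in the wild type, 4866 and 4243 without FIH alone, 2607 and 2609 without VHL alone and 4811 and 5047 without both. VHL null arrays were below all others. Pcdh18 was 1.46-fold lower in VHL null cells than in wild type (-0.53 ± 0.12, adjusted p = 0.00524) and 1.89-fold higher in double null than in VHL null cells (0.91 ± 0.12, adjusted p = 0.000192). All 3 of its probe sets had those signs. It was 1.30-fold higher in double null than in wild type cells (0.39 ± 0.12, adjusted p = 0.0259), a difference that became -0.08 under scaling to hybridization controls. The call was also lost without the first wild type array (0.17, adjusted p = 0.245), without either double null array (0.0574 and 0.108) and with no variance trend (0.0928).

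Pcdh19, the X-linked protocadherin that partners with N-cadherin in neural tissue and whose human counterpart is an epilepsy gene, was bright everywhere and changed little. Its signal was 16089 and 14516 in wild type arrays, 17817 and 17368 in FIH null arrays, 18639 and 20748 in VHL null arrays and 17087 and 19859 in double null arrays. Wild type arrays were the lowest. It was 1.29-fold higher in VHL null (0.36 ± 0.083, adjusted p = 0.00456) and 1.21-fold higher in double null cells (0.27 ± 0.083, adjusted p = 0.0223). The double null value became -0.19 under scaling to hybridization controls, and the 3 probe sets gave 0.27, 0.10 and -0.20. The double null call was also lost without the second wild type array (adjusted p = 0.158) and without the second double null array (0.16, adjusted p = 0.166). The VHL null value was 0.0021 (adjusted p = 0.985) under scaling to hybridization controls, and its call was lost without the second VHL null array (adjusted p = 0.0524).

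**Figure D3:**
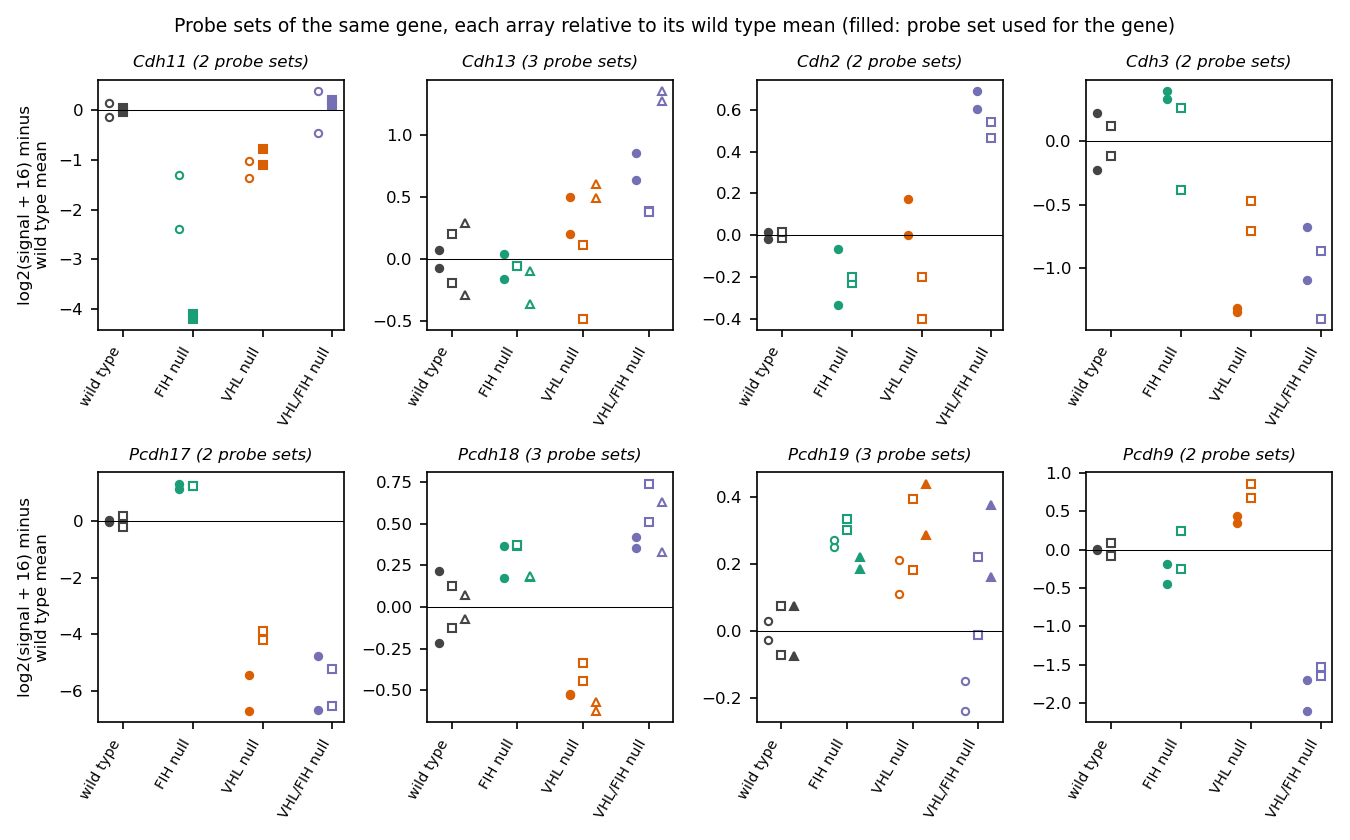
Log2(signal + 16) of each array minus the wild type mean of the same probe set, for the 8 genes with more than 1 detected probe set; marker shapes are probe sets and filled markers the one used for the gene. Both probe sets of Cdh11 have their lowest mean in FIH null cells and both of Pcdh17 are low without VHL, whereas the Pcdh19 probe sets spread from -0.20 to 0.27 in double null cells.

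Clustered protocadherins, here the beta genes and Pcdhgc4 alone, were mostly undetected. Both detected beta genes were brightest in double null cells, but Pcdhb17 did not pass there against wild type. Pcdhb22 was tested only through its double null arrays, so the filter favoured a higher value there and its comparisons are a description. Pcdhb22 had signals of 202 and 192 in wild type cells, then 62.8 and 138 with FIH deleted, 198 and 68 with VHL deleted and 799 and 960.1 with both deleted. Only the double null arrays were above the cutoff. That is at least 3.02-fold higher than in wild type (2.07 ± 0.51, adjusted p = 0.00731), VHL null (2.73, adjusted p = 0.00161) and FIH null cells (3.02, adjusted p = 0.000596). The wild type comparison did not pass without the second double null array (adjusted p = 0.0609).

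Pcdhb17 had signals of 335 and 366 in the wild type, 180.5 and 157 without FIH alone, 223 and 263 without VHL alone and 567 and 558 without both. The double null arrays were above all others and the FIH null arrays below. It was at least 1.93-fold higher in double null than in VHL null (1.16 ± 0.29, adjusted p = 0.00909) and FIH null cells (1.65 ± 0.29, adjusted p = 0.000833). Against wild type, neither the double null value (0.66, adjusted p = 0.0919) nor the FIH null value (-0.99, adjusted p = 0.0737) passed. With no variance trend both passed (adjusted p = 0.00611 and 0.00789). The double null value also passed under centring per chromosome (0.86, adjusted p = 0.0366), and the FIH null value under scaling to hybridization controls (-1.25, adjusted p = 0.00771). Pcdhgc4, a gamma cluster gene of the C type, went the other way, from 274 and 295 in double null to 430.2 and 513 in FIH null cells. It was 1.66-fold lower in double null than in FIH null cells (-0.69 ± 0.24, adjusted p = 0.0367). That call was lost without any of the 4 arrays compared and under centring per chromosome (adjusted p = 0.214).

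With no filter, the 42 undetected genes gave 1 call in each of 4 comparisons, named here after their values were seen. Pcdhb6 was lower in VHL null (-1.92, adjusted p = 0.0408) and Pcdhb19 higher in double null cells than in wild type (1.90, adjusted p = 0.0362). Pcdhb20 was higher in double null than in VHL null cells (2.15, adjusted p = 0.0458), and Cdh9 had an interaction of 3.04 (adjusted p = 0.0494). All of these signals but a single Pcdhb19 value were under the cutoff. In FIH null against wild type and double null against FIH null limma made 0 calls among the 42, with 4 and 3 genes at an unadjusted p under 0.05.

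In FIH null against wild type cells, 1 of the 14 detected genes changed, Cdh11, which was lower, where 6.55% of all tested genes were called (1.96% higher, 4.59% lower). No member was called higher by limma, and 3 were higher at an unadjusted p under 0.05. In VHL null cells 6 changed (1 higher, 5 lower), a share of 42.9% beside 43.8% of all genes (15.5% higher, 28.4% lower). In double null cells 10 changed against wild type (6 higher, 4 lower), where 41.4% of all genes were called (17.8% higher, 23.6% lower). Against VHL null cells 7 changed (6 higher, 1 lower), beside 37.7% of all genes (22.3% higher, 15.4% lower). Against FIH null cells 11 changed (6 higher, 5 lower), beside 45.5% of all genes (20.6% higher, 25% lower). The comparisons share groups. Under scaling to hybridization controls the splits against wild type became 0 higher and 4 lower in FIH null, 0 and 8 in VHL null, and 2 and 7 in double null cells, while those against VHL null (6 and 2) and FIH null cells (6 and 5) moved by 1 call at most. The 2 higher calls left in double null cells were Cdh17 and Pcdhb22, which were tested only through their double null arrays. Quantile normalization and median centring each gave 3 higher and 5 lower in VHL null cells. Without Cdh17 and Pcdhb22, the counts for the other 12 were 4 higher and 4 lower against wild type, 4 and 1 against VHL null, and 4 and 5 against FIH null cells. The median size of change of the 14 was 0.70 in double null cells against wild type, beside 0.25 over all tested genes, and 0.51 beside 0.27 in VHL null cells. The double null median counts Cdh17 (2.20) and Pcdhb22 (2.07), whose size there follows in part from the filter, so it is a description.

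**Figure D4:**
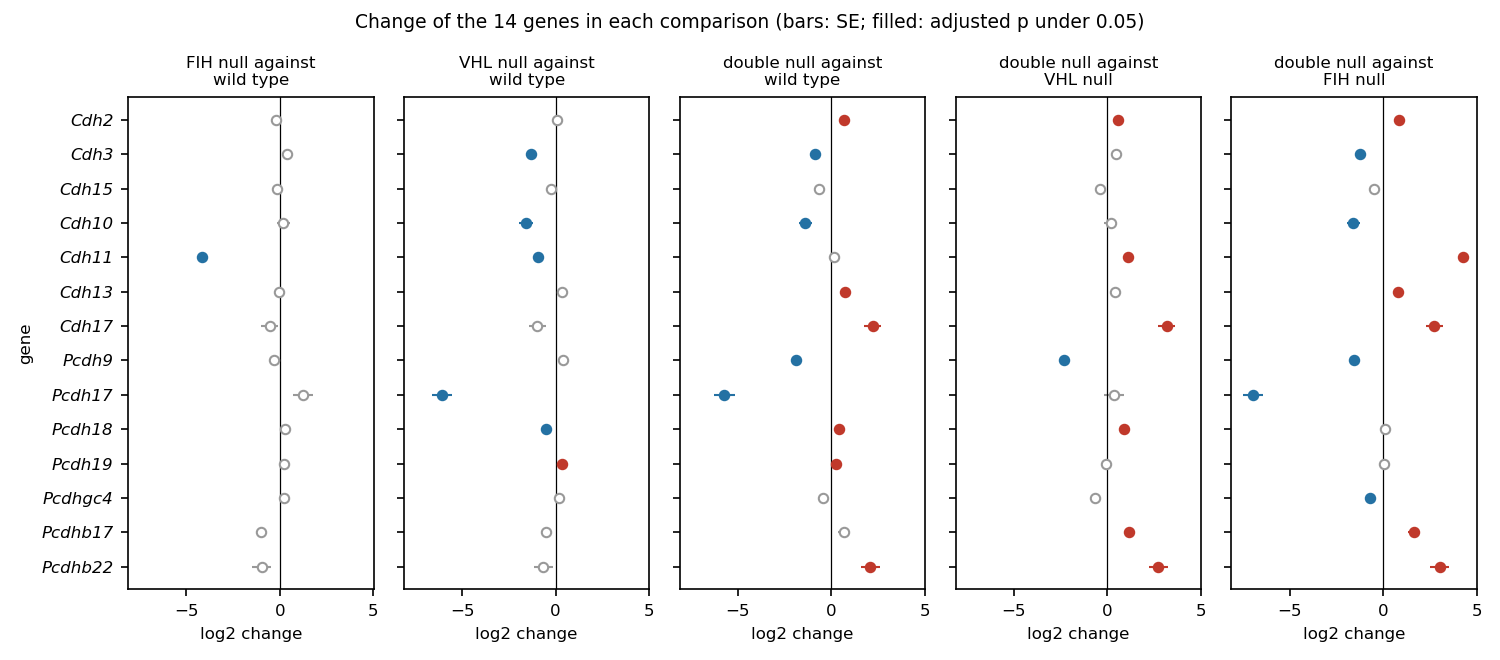
Log2 change ± SE of the 14 detected genes in the 5 comparisons of groups; filled points passed adjusted p under 0.05, red higher and blue lower in the first group, and open points did not pass. Calls number 1, 6, 10, 7 and 11 from left to right.

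The effect of FIH deletion was then compared between cells with and without VHL, as the interaction term of the same fit. It was called for 7 of the 14 genes, 6 positive and 1 negative, where 21.9% of all tested genes were called (13.4% positive, 8.47% negative). Cdh17 and Pcdhb22 were tested only because their double null arrays passed the cutoff, which favours a positive interaction, and without them 4 of 12 were positive and 1 negative. For Cdh11 the change with FIH deletion was -4.14 in cells with VHL and 1.10 in cells without it, an interaction of 5.24 ± 0.18 (adjusted p = 2.31e-08). Pcdh9 had changes of -0.32 and -2.29, an interaction of -1.98 ± 0.25 (adjusted p = 0.000298). Pcdhb17, Cdh2 and Pcdh18 had positive interactions of 2.15, 0.76 and 0.64 (adjusted p = 0.00391, 0.00156 and 0.022), as did Cdh17 and Pcdhb22 with 3.71 and 3.69 (adjusted p = 0.00207 and 0.00428). For Cdh11, Cdh17, Pcdhb17 and Pcdhb22 these values rest in part on signals under the cutoff. The Pcdh18 value lost its call under 8 of 20 other settings (highest adjusted p = 0.0973). For Pcdh17, Cdh3 and Cdh10, which were low without VHL whether or not FIH was present, the interactions were -0.89, 0.08 and -0.01 and did not pass (adjusted p = 0.443, 0.842 and 0.994). The Pcdh17 interaction rests on signals under the cutoff in both groups without VHL; it passed at -1.86 without the first double null array (adjusted p = 0.0402) and at -2.00 when its probe sets were averaged (adjusted p = 0.00745).

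**Figure D5:**
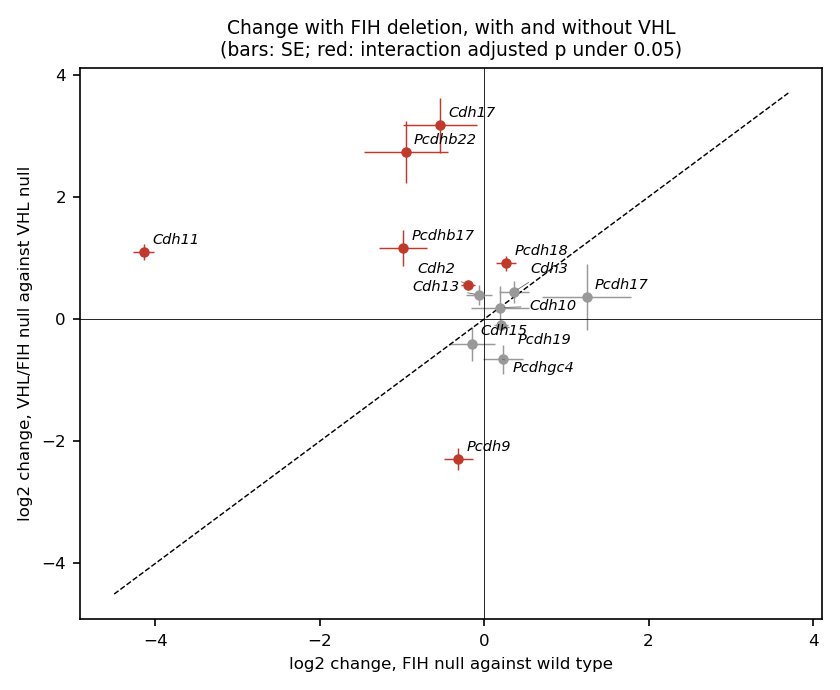
Log2 change ± SE with FIH deletion in cells with VHL (horizontal, FIH null against wild type) and without it (vertical, double null against VHL null) for the 14 genes; red points passed the interaction test and the dashed line marks equal change. Cdh11 lies at -4.14 and 1.10 and Pcdh9 at -0.32 and -2.29, while Cdh10 lies near the line.

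Catenins and junction partners were tested in 21 of 24 cases. In VHL null cells 6 rose and 9 fell, beside 15.5% and 28.4% of all tested genes (median change -0.33, all tested genes -0.10), and under scaling to hybridization controls 0 rose and 14 fell. In double null cells 6 rose and 9 fell, beside 17.8% and 23.6% of all tested genes (median -0.24, all tested genes -0.05), and under that scaling 2 rose and 16 fell. p120 catenin (Ctnnd1), which keeps cadherins at the surface, fell from 8771 ± 340.3 (SD, n = 2) in wild type to 4925 ± 147 in VHL null cells (-0.83, adjusted p = 9.43e-06) and stood at 7123 ± 562 in double null cells. Plakoglobin (Jup) fell by 1.16 in VHL null cells (adjusted p = 5.58e-05). Alpha catenin (Ctnna1) was called higher there by 0.47, against 0.11 under scaling to hybridization controls (adjusted p = 0.156). Beta catenin (Ctnnb1) was called higher by 0.28 in double null cells and turned to -0.19 under that scaling (adjusted p = 0.0105). Plakophilin 2 (Pkp2) and Nectin3, partners of desmosomes and of adherens junctions, rose by 1.15 and 0.73 in double null cells (adjusted p = 4.93e-07 and 6.25e-06). In FIH null cells Pkp1 fell by 1.71 and Tjp1 fell by 0.27 (adjusted p = 0.0311 and 0.0244), and the other 19 did not pass, where 6.55% of all tested genes were called; Tjp1 was lost under median centring (adjusted p = 0.104).

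Of 28 other members of the cadherin superfamily 9 were tested, and Fat4, the giant cadherin that binds Dchs1 in planar polarity, was low in FIH null cells, as Cdh11 was. Its signal was 1315 ± 131 (SD, n = 2) in wild type arrays, 291 ± 52.3 in FIH null arrays, 931 ± 204 in VHL null arrays and 2749 ± 431 in double null arrays. Its change was -2.12 in FIH null (adjusted p = 4.97e-05) and 1.05 in double null cells, both against wild type (adjusted p = 0.0013), with an interaction of 3.68 (adjusted p = 6.24e-06). Fat1 fell by 0.41 in VHL null cells (adjusted p = 0.00197) and was 0.54 higher in double null cells (adjusted p = 0.000317), values that became -0.052 under centring per chromosome and 0.078 under scaling to hybridization controls, neither of which passed. In double null against wild type cells 4 of the 9 rose (Fat1, Fat4 and Cdhr1 among them) and 2 fell, beside 17.8% and 23.6% of all tested genes. Clstn1 fell by 0.50 (adjusted p = 0.000282). Dchs1 was lower in double null than in VHL null cells (-2.28, adjusted p = 0.00414).

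Transcription factors of the epithelial to mesenchymal switch, several of which repress Cdh1, were tested in 11 of 13 cases and split in both groups without VHL: 3 rose and 3 fell in VHL null, and 3 rose and 4 fell in double null cells. These are 6 and 7 of 11, beside 43.8% and 41.4% of all tested genes. Under scaling to hybridization controls 0 rose in either group, and 6 and 8 fell. Snai2, or Slug, rose by 0.35 in VHL null cells and 0.48 in double null cells (adjusted p = 0.00221 and 0.000297), against -0.0084 and 0.016 under that scaling. Tcf3 fell by 0.66 in VHL null cells (adjusted p = 0.000222). Prrx1, a mesenchymal factor, fell in VHL null (-0.46, adjusted p = 0.000356) and rose in FIH null (0.57, adjusted p = 0.000419) and double null cells (0.46, adjusted p = 0.000318; -0.0038 under scaling to hybridization controls). Foxc2 fell in FIH null cells (-1.15, adjusted p = 0.000233). The median change of the list was -0.11 in VHL null cells and -0.17 in double null cells.

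Regulators of the protocadherin clusters (CTCF, cohesin, DNA methyltransferases and silencers) were tested in 14 of 16 cases. In VHL null cells 6 rose and 2 fell, in double null cells 2 rose and 3 fell, and in FIH null cells 0 passed in limma, with 2 at an unadjusted p under 0.05. The shares of all tested genes called were 43.8%, 41.4% and 6.55%. Scaling to hybridization controls turned these to 0 higher with 8, 12 and 9 lower. Dnmt3a, a de novo DNA methyltransferase, fell from 1303 ± 42.6 (SD, n = 2) to 875 ± 49.6 in VHL null cells and 761 ± 66.5 in double null cells (adjusted p = 0.00513 and 0.000803). Rest, the repressor of neuronal genes, rose by 0.58 and 0.34 (adjusted p = 0.000999 and 0.0205), against 0.22 and -0.12 under that scaling. Enzymes that cut or glycosylate cadherins were tested in 10 of 16 cases. Of these, 5 fell in VHL null cells, where 28.4% of all tested genes did, among them the gamma-secretase subunit nicastrin (Ncstn, -1.01, adjusted p = 0.000257) and the cadherin mannosyltransferase gene Tmtc4 (-0.59, adjusted p = 0.000507). In double null cells 2 rose and 2 fell, beside 17.8% and 23.6% of all tested genes, and Adam10, which cuts N-cadherin at the surface, rose by 0.37 (adjusted p = 0.00157; -0.093 under scaling to hybridization controls).

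The fibroblast label was checked against 11 markers, of which 10 passed the cutoff on at least 2 arrays, with summed signals of 334098 to 415229 over the groups; Lum never passed. Most of the sum was Vim, Col1a2, Fn1 and S100a4. Pdgfra had a mean of 1010.3 in the wild type, 803 without FIH alone, 1820.2 without VHL alone and 175 without both. Dcn had 610.1, 113, 1056 and 130.2 in the same order, under the cutoff in FIH null cells, where Cdh11 was low, and in double null cells, where it was not. Their part in the members' values was not tested. The endothelial sum was 514 to 1279, with 6 of 8 markers never above the cutoff, Pecam1 and Tie1 among them. Kdr passed on 4 arrays and Tek on 1. Of 6 muscle markers, Myod1, Myog and Myf5 never passed, and the sum was 802 to 846 in wild type and 1320 to 1354 in VHL null cells. Pax7, Des and Ckm passed on 2, 3 and 5 arrays. Pax7 had means of 184.7, 39.6, 535.5 and 112 in wild type, FIH null, VHL null and double null cells. Of 7 macrophage markers 4 never passed, including Ptprc, with sums of 1862 to 2364. Csf1r (538.6 to 863.5) and Cd68 (343.9 to 751.8) passed on all 8 arrays and Laptm5 on 6. Neural markers passed in 6 of 8 cases, with sums of 8917 to 9138 in wild type cells, then 8579 to 9034 with FIH deleted, 6103 to 6308 with VHL deleted and 8431 to 8855 with both deleted; Elavl3 and Snap25 never passed. The neural sum was lowest in VHL null cells, but its members differed. Sox2 had means of 539 in wild type and 547 in FIH null cells against 172 and 7.3 in the VHL null and double null groups, where Pcdh17 and Cdh10 were low too, and Sox10 had 334, 311, 230.1 and 225.5. Map2 had 1719, 3172, 299 and 3450.2 in the same order. Tubb3 had 1334, 679, 1032 and 857, Nes had 4695, 3738, 4229 and 3561, and Gfap had 204, 270, 122 and 282. Sox10 and Gfap did not exceed 371 on any array. Their part in the Pcdh17 and Cdh10 values was not tested.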

How the data were processed

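RNA was hybridised to 8 Affymetrix Mouse Genome 430 2.0 arrays, 1 colour and 1 sample per array. The intensity values used are the MAS5 signals that the authors deposited, 1 per probe set, per the submitters' processing notes. They are on a linear scale. Each array had a trimmed mean of 2500, leaving out 2% at each end, so the authors' scaling was kept; scanner intensities were not used here. Of 45101 probe sets 64 were controls and were left out of the tests, and 34945 had 1 gene symbol in the platform annotation.

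Here lmFit and eBayes of limma 3.58.1 (R 4.3.3), with a variance trend, were run on log2(signal + 16), with 1 mean per genotype group over all 8 arrays. Of several tested probe sets of a gene, the one with the greatest mean over the arrays stood for it. Tests were two-sided, with Benjamini-Hochberg adjustment over 11564 genes in each of 6 comparisons. The code was tested on simulated data. Only 2 arrays per group limit the precision.

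Members called in a comparison without overlap between groups were named, together with the best known cadherins and detected non-clustered protocadherins, and up to 4 genes per list. The members and lists were chosen with earlier results of these data known. Replicate numbers did not pair the arrays: deviations of same-numbered arrays correlated at 0.00869 to 0.0393 over 6 pairs of groups. Alternatives were other added constants, filters, scalings, variance models, probe set rules, a replicate block and leaving out each array. Centring per chromosome was added after the data were seen.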

Additional observations from a re-analysis of the deposited data

Results flagged for a closer look

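For 7 genes the change with FIH deletion differed between cells with VHL and cells without it, by the interaction term of the limma fit; these values were drawn out because the difference itself passed the test. Cdh17 and Pcdhb22 were tested only through their high double null arrays, which favours a positive interaction, so their values are a description. On the log2 scale the interaction was 5.24 for Cdh11, 3.71 for Cdh17, 3.69 for Pcdhb22, 2.15 for Pcdhb17, 0.76 for Cdh2, 0.64 for Pcdh18 and -1.98 for Pcdh9. The arrays of 1 genotype came from 1 line each, and the part of the line in these differences was not tested. Cdh11, Pcdhb17 and Cdh2 had means below wild type in FIH null cells and above VHL null in double null cells, whereas Pcdh9 was below in both. Chromosome 18, which holds Cdh2, Pcdhb17 and Pcdhb22, had a median interaction of -0.35 over its other 280 tested genes, against 0.06 over all tested genes.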

How the results depend on the processing

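Of 42 member calls, 33 kept direction and threshold under every alternative that could be fitted. With 75th percentile filtering 5 members were left, and counts were 4 of them in double null against wild type, 3 against VHL null, 3 against FIH null, 3 for the interaction and 5 across the 4 groups. Asking for a 2-fold change left 3 calls against wild type in VHL null cells and 5 in double null cells. The single call in FIH null cells became 2 with 64 added, median centring, no variance trend or only the compared groups, 3 for the mean of probe sets and 4 under scaling to hybridization controls. Leaving out each array gave 1 to 2 calls in FIH null cells (2 without the second wild type array), 5 to 7 in VHL null cells and 7 to 10 in double null cells, each set against wild type. It gave 7 to 9 in double null against VHL null, 10 to 11 against FIH null, 6 to 8 for the interaction and 11 to 12 across the groups.

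Scaling to hybridization controls reversed Cdh2 in VHL null (-0.27) and Cdh11 (-0.31), Pcdh18 (-0.075) and Pcdh19 (-0.19) in double null cells against wild type. Taking the mean of probe sets reversed Pcdh19 in the double null to FIH null comparison (-0.20). The cause was not tested. Under scaling to hybridization controls the share of all calls that were higher went from 29.9% to 1.34% for FIH null, 35.3% to 5.39% for VHL null and 43.0% to 6.35% for double null cells, set against wild type. Median centring gave 71.2%, 49.1% and 55.3%, and centring per chromosome 29.3%, 65.1% and 59.5%.

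That scaling ended 4 of the 6 higher calls in double null against wild type, those of Cdh13 (adjusted p = 0.134), Cdh2 (0.0982), Pcdh18 (0.585) and Pcdh19 (0.077). The other 2 were Cdh17 and Pcdhb22, tested only through their double null arrays. With a replicate block, 83 of 84 gene results were the same and double null against VHL null had 8 calls in place of 7, Cdh3 being added (adjusted p = 0.0404). The largest SE belonged to Pcdh17 (0.54), Pcdhb22 (0.51) and Cdh17 (0.45), whose signals were under the cutoff in at least 2 groups.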
